A study of Mus musculus with 6 samples.

Results

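The genes described here are Pkd1, Pkd2, Pkhd1, Bicc1, Nek8, Ift88 and Kif3a, 7 genes whose loss gives kidney cysts or nephronophthisis, of 30281 gene symbols in the deposited table. They were taken by symbol, and all 7 were found. The set was chosen by disease and with measured values in view: Pkd1, the chromosomal neighbour of Tsc2, was selected on its rise with rapamycin. Changes with rapamycin are therefore given for the 7 genes as a description, with no p-value, and nothing is read from how many passed a threshold.

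RNA-Seq of poly(A) RNA was performed on 6 mouse libraries, with 1 library per condition. The mouse embryo fibroblasts (MEFs) were Tsc2-/- p53-/- or Tsc2+/+ p53-/-, and both were labelled as untreated. The other 4 libraries came from the kidney epithelial lines MKOC and TJ, with the Tsc2-null label on each. The TJ line was derived from a secondary tumor in C57BL6 mice. Each kidney line was either untreated or treated with 100 nM rapamycin, an inhibitor of mTORC1, for 18 hours in serum-free medium, so all kidney cells carry the same genotype label and no kidney library of wild-type cells was analysed here. A line is 1 cell population, and p-values over these libraries measure the spread between lines or libraries, not between animals. Estimated counts summed to between 22887020 and 37505004 per library.

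Most proteins of cystic kidney disease act at the primary cilium, a sensory antenna on the surface of tubule cells. Polycystin-1 (Pkd1) is a large receptor-like membrane protein that forms a complex with the cation channel polycystin-2 (Pkd2), and both are mutated in dominant polycystic kidney disease. Fibrocystin (Pkhd1) is the membrane protein mutated in the recessive disease. Bicc1 is an RNA-binding protein and Nek8 a kinase of the inversin compartment at the base of the cilium. Ift88 belongs to the intraflagellar transport complex B (IFT-B) that builds the cilium, and Kif3a is a motor subunit of kinesin-2, which carries IFT trains outward. In humans, deletions that remove both TSC2 and PKD1 cause tuberous sclerosis with severe early polycystic disease.

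The labelled cell types were checked against fixed marker lists. Of 8 epithelial markers, 5 reached 1 TPM in every kidney library, with Krt8 between 539 and 990 TPM and Cdh1 between 101 and 128 TPM. Epcam did not exceed 0.0268 TPM and Cldn7 was at 0 in these libraries. Of 10 kidney tubule markers, 5 reached 1 TPM in every kidney library, among them Cdh16, Pax8, Pax2 and Emx2 (Emx2 in the MEFs too), whereas the segment markers Slc34a1, Slc12a1, Slc12a3 and Aqp2 were at most 0.179 TPM. The 8 fibroblast markers summed to 2088 and 2156 TPM in the MEFs and to at most 2.72 TPM in a kidney library. The leukocyte gene Ptprc was at most 0.0423 TPM in the kidney libraries, while Csf1r was between 11.3 and 30.3 TPM there. Tsc2 RNA was present in every library, at 49.1 and 44.0 TPM in untreated MKOC and TJ cells and at 10.5 TPM in the Tsc2-/- MEFs, against 22.6 TPM in the Tsc2+/+ MEFs. Fewer cells with a transcript and less of it per cell cannot be told apart in these bulk samples.

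RefSeq promoter sequences (GRCm38.p6) were matched for 6 of the 7 genes. That of Pkd1 is shown because the levels of Pkd1 and its neighbour Tsc2 moved in opposite directions with rapamycin. It is the 250 bases before the start site, 5′ to 3′ on the strand of the gene, at chr17:24549700-24549949 on the plus strand, with each GC box (GGGCGG on either strand) in capitals.
Pkd1: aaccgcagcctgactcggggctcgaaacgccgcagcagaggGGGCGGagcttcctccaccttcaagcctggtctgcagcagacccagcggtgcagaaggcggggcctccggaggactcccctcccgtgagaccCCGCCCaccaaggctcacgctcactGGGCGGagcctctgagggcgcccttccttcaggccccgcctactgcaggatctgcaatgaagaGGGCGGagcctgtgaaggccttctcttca

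Both strands of the 250 bases were searched, and the motifs named here do not overlap each other in these windows. The Pkd1 promoter held 4 GC boxes, Nek8 and Kif3a held 1 each, and 32.7% of all 32851 promoters held at least 1. The half-site GTTGCC of the X-box, the element of RFX factors of ciliary genes, was found in Kif3a only, against 10.4% of all promoters. The element TCACGTGA of the TFEB and TFE3 type was found in none of the 6 and in 0.785% of all promoters. These motifs were chosen after values and sequences had been seen, and a match describes letters, not binding.

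The first comparison asked at what level each gene was expressed in each kind of cell, in TPM, which is scaled to transcript length. Bicc1 was the most abundant of the 7 in all 4 kidney libraries, followed by Kif3a and Pkd2 in either order, while Pkd1, Pkhd1, Nek8 and Ift88 stayed at or below 14.0 TPM. In the MEFs Kif3a and Pkd2 were the most abundant, and Pkhd1 had at most 1 count. Intervals in parentheses are exact 95% Poisson intervals, which cover counting error only.

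**Figure D1:**
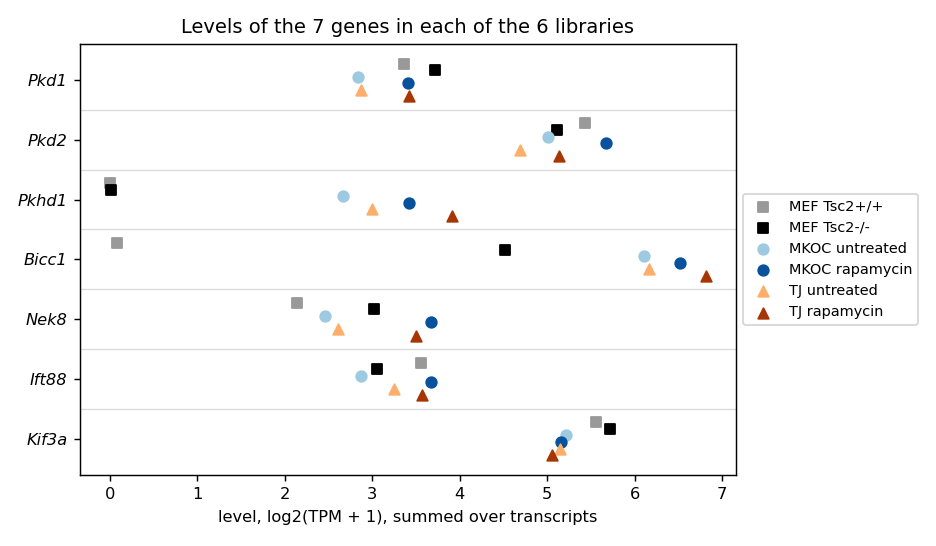
Level of each of the 7 genes as log2(TPM + 1) (horizontal axis), with 1 point per library, by shape and colour for MEFs (squares), MKOC (circles) and TJ (triangles). Pkhd1 sits at 0 in both MEF libraries and Bicc1 near 0 in the Tsc2+/+ MEFs only; darker kidney points (rapamycin) lie to the right of the lighter ones for every gene but Kif3a.

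Pkd1 is listed as 1 transcript of 14170 bases and 46 exons, ENSMUST00000035565, on the plus strand of chromosome 17 (GRCm38, 24549950 to 24596508). Its level was 9.25 TPM in Tsc2+/+ MEFs, 12.2 TPM in Tsc2-/- MEFs, 6.11 TPM in untreated and 9.59 TPM in rapamycin-treated MKOC cells, and 6.32 TPM in untreated and 9.73 TPM in rapamycin-treated TJ cells. The untreated kidney libraries were the lowest 2 of the 6, and in TPM the treated ones lay just above the Tsc2+/+ MEFs. The counting intervals of treated MKOC (9.18 to 10.01) and TJ cells (9.35 to 10.1) overlapped that of Tsc2+/+ MEFs (8.97 to 9.54). On CPM, which is scaled to the library total only, treated MKOC and TJ cells were at 91.5 and 93.3. Tsc2+/+ and Tsc2-/- MEFs were at 109.1 and 109.8, so the place of the treated cells relative to the MEFs depends on the scaling. Because the transcript is long, these levels rest on 1599 to 4092 estimated counts.

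Pkd2 (chromosome 5, 104459450 to 104505819, plus strand) was measured at 42.2 TPM in Tsc2+/+ and 33.5 TPM in Tsc2-/- MEFs, at 31.1 and 49.999 TPM in MKOC cells without and with rapamycin, and at 24.8 and 34.01 TPM in TJ cells. The transcript ENSMUST00000086831 of 15 exons took between 93.0% and 96.9% of its counts. Pkd2 RNA thus exceeded Pkd1 RNA in all 6 libraries, with a TPM ratio of Pkd1 to Pkd2 between 0.192 (rapamycin-treated MKOC cells) and 0.364 (Tsc2-/- MEFs).

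Pkhd1 (chromosome 1, 20057779 to 20618064, minus strand) had no count in Tsc2+/+ MEFs, where the limit set by 3 counts is 0.00744 TPM, and 1 in Tsc2-/- MEFs. It reached 5.33 TPM (interval 5.05 to 5.62) in untreated and 9.72 TPM in treated MKOC cells, and 7.002 TPM (interval 6.66 to 7.36) in untreated and 14.0 TPM in treated TJ cells. Between 99.5% and 99.9% of its kidney counts fell on ENSMUST00000088448, the transcript of 67 exons and 12935 bases that encodes the full protein. The kidney and MEF libraries did not overlap.

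Bicc1 (chromosome 10, 70922832 to 71159700, minus strand) was at 67.6 and 90.7 TPM in MKOC cells without and with rapamycin and at 70.6 and 111 TPM in TJ cells. It was at 21.9 TPM in Tsc2-/- MEFs and at 0.0530 TPM in Tsc2+/+ MEFs. The 5 libraries that express it divided its counts alike, with 82.3% to 84.7% on ENSMUST00000143791 (21 exons) and 15.1% to 17.5% on ENSMUST00000131445 (22 exons), both protein-coding.

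Nek8 (chromosome 11, 78166106 to 78176675, minus strand) had the lowest value of the 7 in the 2 untreated kidney libraries, within counting error of Pkhd1 in MKOC cells. It had 3.39 TPM in Tsc2+/+ MEFs, 7.13 TPM in Tsc2-/- MEFs, 4.48 and 11.7 TPM in MKOC cells without and with rapamycin, and 5.08 and 10.3 TPM in TJ cells. Its values rest on few reads, between 148 and 385 estimated counts per library. They were spread over 8 transcripts, several of them with a retained intron.

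Ift88 (chromosome 14, 57424062 to 57517936, plus strand) was at 10.7 TPM in Tsc2+/+ and 7.32 TPM in Tsc2-/- MEFs, at 6.31 and 11.8 TPM in MKOC cells without and with rapamycin, and at 8.52 and 10.9 TPM in TJ cells. Kif3a (chromosome 11, 53567379 to 53601967, plus strand) had the smallest ratio of highest to lowest TPM of the 7. It was at 46.1 TPM in Tsc2+/+ and 51.5 TPM in Tsc2-/- MEFs, 36.0 and 34.6 TPM in MKOC cells, and 34.3 and 32.2 TPM in TJ cells. All 4 kidney values of Kif3a were below both MEF values, whereas the values of Ift88 overlapped.

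In untreated MKOC cells the counting intervals of Ift88 and Pkd1 overlapped, as did those of Pkhd1 and Nek8, so their order is not resolved there. In rapamycin-treated MKOC cells Ift88 and Nek8 overlapped, and so did Pkhd1 and Pkd1. In rapamycin-treated TJ cells Pkd2 and Kif3a overlapped, as did Ift88, Nek8 and Pkd1 in turn. In Tsc2-/- MEFs only Ift88 and Nek8 overlapped as neighbours, and in Tsc2+/+ MEFs and untreated TJ cells no neighbours did.

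The second comparison set both kidney lines with rapamycin against the same lines without it. Of the 7 genes, 6 were higher with rapamycin in both lines and Kif3a was slightly lower in both. The largest rise was that of Nek8, at 2.44-fold, and the others were between 1.44-fold (Bicc1) and 1.84-fold (Pkhd1). In the test over all 12952 genes, these 6 passed the threshold of an adjusted p of 0.05 upward, where 17.5% of all genes did (34.9% in either direction); because the genes were chosen with this contrast in view, nothing is read from that count.

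**Figure D2:**
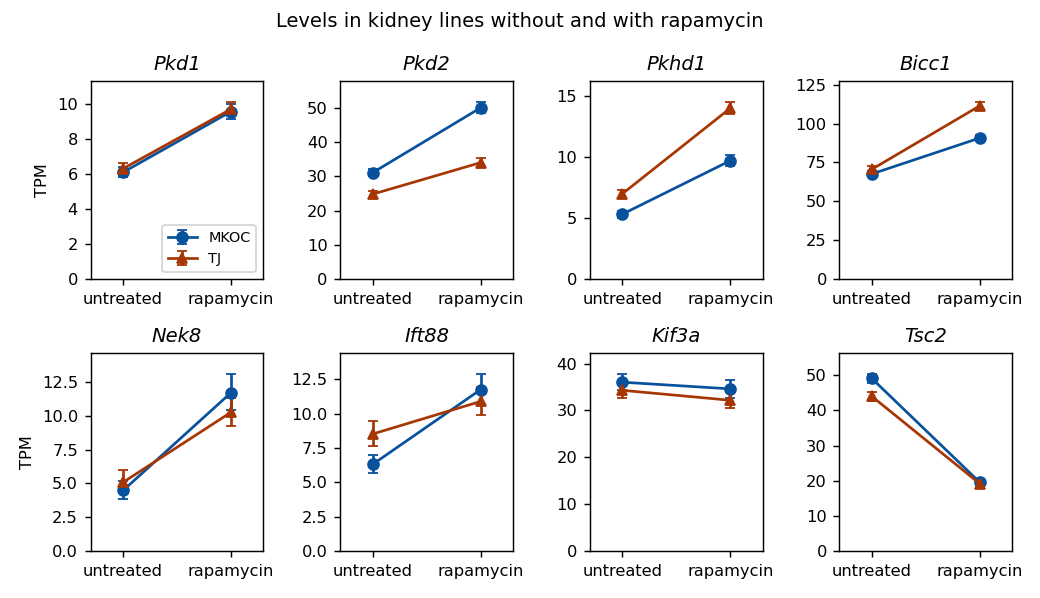
TPM (vertical axis, from 0) of each of the 7 genes and Tsc2 in untreated and rapamycin-treated MKOC (blue circles) and TJ cells (brown triangles), 1 library per point, with 95% Poisson intervals for counting error as bars. The lines rise in both cell lines for 6 genes, are nearly level for Kif3a and fall for Tsc2.

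For the polycystins, the log2 fold change of Pkd1 was 0.63 (SE 0.10) over both lines, a 1.54-fold rise, with 0.64 in MKOC and 0.61 in TJ cells on TMM-normalized CPM. Of all genes tested, 12.5% had a larger log2 fold change. Pkd2 had a log2 fold change of 0.56 (SE 0.10), from 0.65 in MKOC and 0.46 in TJ cells. The TPM ratio of Pkd1 to Pkd2 changed little with treatment, from 0.197 to 0.192 in MKOC cells and from 0.255 to 0.286 in TJ cells.

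Pkhd1 had a log2 fold change of 0.88 (SE 0.11), from 0.76 in MKOC cells and a change larger by 0.24 in TJ cells, and 6.88% of all genes had a larger change. Bicc1 had a log2 fold change of 0.53 (SE 0.10), with 0.42 in MKOC and 0.64 in TJ cells. Nek8 had 1.29 (SE 0.17), with 1.21 in MKOC and 1.36 in TJ cells, and 2.55% of all genes had a larger change. In TPM the order of the lines was reversed for Nek8, with a 2.62-fold rise in MKOC and a 2.02-fold rise in TJ cells. Ift88 had 0.55 (SE 0.15), and was the least even of the 7 between the lines, with 0.72 in MKOC and 0.37 in TJ cells. Kif3a had -0.08 (SE 0.11), with -0.07 and -0.09 in the lines. The IFT-B subunit and the motor subunit thus differed, and the TPM ratio of Ift88 to Kif3a went from 0.175 to 0.340 in MKOC cells and from 0.248 to 0.339 in TJ cells.

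Both lines moved the same way for each of the 7 genes. The difference between the lines in their change with rapamycin could not be tested with 1 library per line and treatment. On the log2 scale (TJ less MKOC) it was -0.02 for Pkd1 and Kif3a and -0.36 for Ift88, and 27.7% of all genes had a larger gap than Ift88. The summed level of the 8 epithelial markers was also higher with rapamycin, at 965 and 1508 TPM in MKOC cells and at 980 and 1648 TPM in TJ cells without and with it. That sum was carried by Krt8 and Krt18, while Esrp1 (12.0 and 11.9 TPM) and Krt19 (0.672 and 0.584 TPM) were slightly lower in treated TJ cells and Cldn7 was at 0 throughout. The 10 tubule markers summed to 611 and 732 TPM in MKOC and to 806 and 976 TPM in TJ cells. That sum was carried mostly by Cdh16, while Pax8 (141 and 121 TPM), Pax2 (15.0 and 12.2 TPM) and Emx2 (27.3 and 26.4 TPM) were lower in treated MKOC cells. The part of these in the changes of the 7 genes was not tested.

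**Figure D3:**
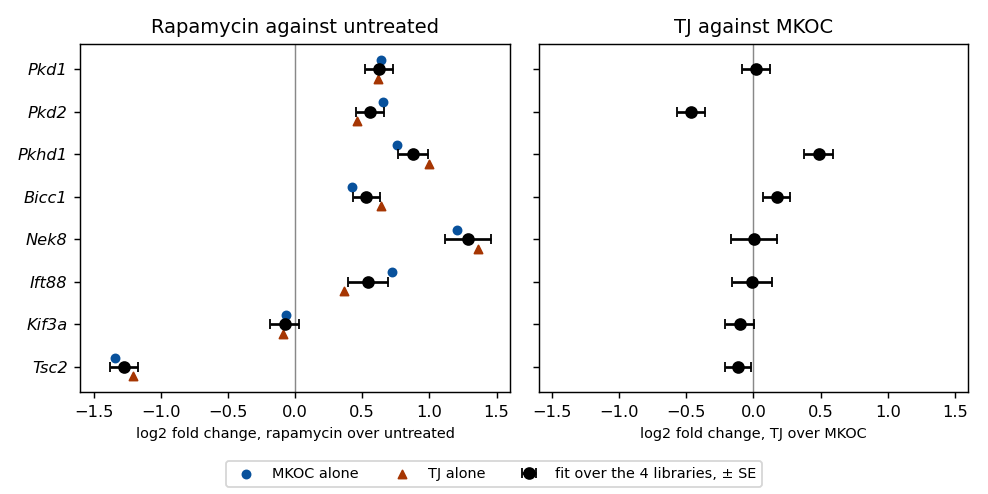
Log2 fold changes of the 7 genes and Tsc2 (horizontal axes) for rapamycin over untreated cells (left) and TJ over MKOC cells (right), as black points with the standard error of the fit over 4 kidney libraries; coloured points on the left are the changes in each line alone. On the left 6 genes lie between 0.53 and 1.29 with both lines on the same side; on the right Pkd2 lies at -0.47 and Pkhd1 at 0.48, and the other members lie between -0.10 and 0.17.

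Pkd1 and Tsc2 run toward each other on chromosome 17, and their 3′ ends overlap. The counted transcripts, ENSMUST00000035565 of Pkd1 and ENSMUST00000097373 of Tsc2, share the bases from 24595937 to 24596508. These 572 bases lie in the 3′ untranslated region of both and hold 0 coding bases. They are 4.04% of the Pkd1 transcript and 9.50% of the Tsc2 transcript. The libraries were made with a stranded kit, but the sources used here do not give the strand setting of Kallisto, so reads from the shared bases may have been divided between the genes.

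**Figure D4:**
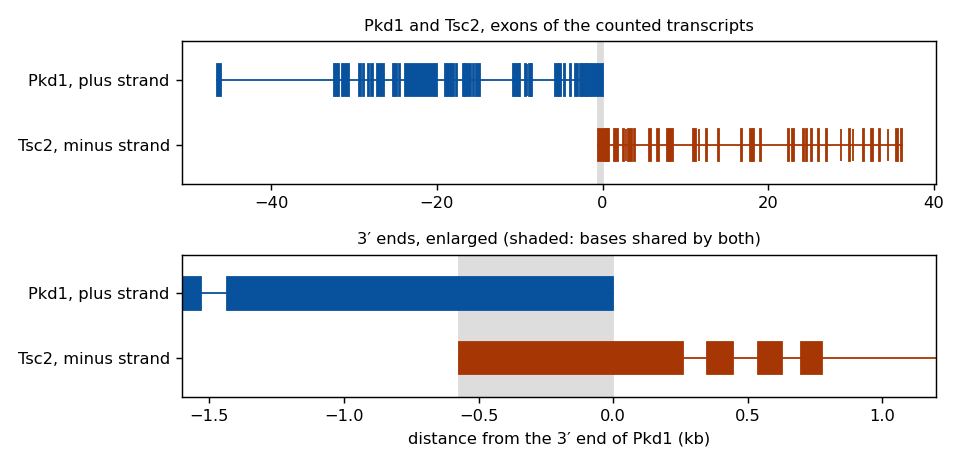
Exons (boxes) of the counted transcripts of Pkd1 (blue, plus strand) and Tsc2 (brown, minus strand) by distance from the 3′ end of Pkd1 in kb; the lower panel enlarges the ends. The shaded stretch of 572 bases is shared by the last exons of both genes.

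Tsc2 had 49.1 TPM in untreated and 19.5 TPM in treated MKOC cells, and 44.0 and 19.1 TPM in TJ cells. It was lower with rapamycin by a log2 fold change of -1.27 (SE 0.10, adjusted p = 2.3e-05, edgeR's quasi-likelihood test), while its neighbour was higher. The TPM ratio of Pkd1 to Tsc2 therefore went from 0.124 to 0.491 in MKOC cells and from 0.144 to 0.508 in TJ cells. In the MEF libraries the ratio was 0.410 for Tsc2+/+ and 1.16 for Tsc2-/-, the latter over the 10.5 TPM of Tsc2 RNA found there. Each ratio rests on at least 945 estimated counts per gene.

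The other genes of the cilium and of cystic disease were taken from lists of 84 genes, of which 74 passed the filter on low counts in the kidney lines. The lists were chosen with earlier results of these data known, so the shares that follow are a description. With rapamycin, 19 rose (25.7%, against 17.5% of all genes), 3 fell (4.05%, against 17.4%) and 52 did not pass the test. Their median log2 fold change was 0.14, against 0.02 for all genes. In place of 22, the numbers that passed were 14 with DESeq2, where 15.4% of all genes did, and 8 without the cell line in the model, where 9.84% of all genes did.

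**Figure D5:**
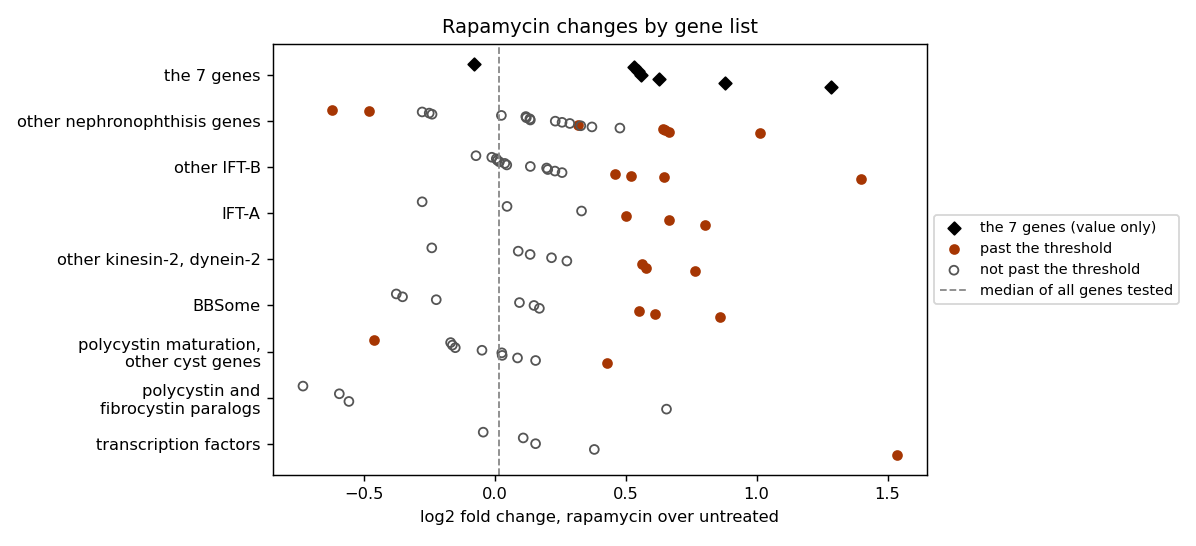
Log2 fold changes with rapamycin (horizontal axis) of the 7 genes (black diamonds, values only) and of the other listed genes by group, filled where the adjusted p was under 0.05; the dashed line is the median of all genes tested. Every IFT, motor and BBSome gene past the threshold lies to the right of the line; genes in more than one list are drawn in each.

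In the transport machinery, 4 of 16 other IFT-B genes rose (25%) and 0 fell, where 17.5% of all genes rose and 17.4% fell. Genes in more than 1 list, such as Wdr19, are counted in each. The largest rises were those of Ttc30b, at 2.63-fold (adjusted p = 0.0036, edgeR), whose counts of 41.3 to 106 in the kidney libraries may be shared with near-identical Ttc30 copies, and Ift46, at 1.57-fold (adjusted p = 0.0017, edgeR). Of 6 genes of IFT-A, which returns cargo to the cell body, 3 rose, among them Ift140 at 1.75-fold and Wdr19 at 1.59-fold. Of 8 other motor genes, 3 rose, with Dync2li1, a light intermediate chain of the retrograde motor dynein-2, at 1.70-fold and Wdr34 at 1.49-fold. Kifap3, the adaptor that sits on the Kif3a and Kif3b motor pair, rose 1.48-fold (adjusted p = 0.003, edgeR), from 21.1 to 32.9 TPM in MKOC and from 21.4 to 30.2 TPM in TJ cells, and was named after its value was seen. Of 9 BBSome genes, whose complex moves membrane proteins out of the cilium, 3 rose, led by Ttc8 at 1.81-fold and Bbs2 at 1.53-fold.

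Of 21 other nephronophthisis genes, 5 rose (23.8%, against 17.5% of all genes) and 2 fell (9.52%, against 17.4%). Invs (inversin), which names the compartment of Nek8, rose 2.02-fold (log2 fold change 1.01, SE 0.14, adjusted p = 0.00056, edgeR), from 3.93 to 9.33 TPM in MKOC and from 4.05 to 6.68 TPM in TJ cells. The centriole gene Cep83 fell by 0.48 on the log2 scale.

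Of 10 genes for polycystin maturation and other cystic diseases, 1 rose (10%, against 17.5% of all genes) and 1 fell (10%, against 17.4%). Dzip1l, a protein of the ciliary transition zone, rose 1.35-fold, and Dnajb11, a chaperone of the endoplasmic reticulum, fell by 0.46 on the log2 scale. The paralogs of polycystins and fibrocystin had 4 tested members, of which 0 passed. Of 5 transcription factors, Foxj1, a regulator of motile cilia, rose 2.90-fold, from a level of 0.712 and 1.45 TPM in untreated MKOC and TJ cells, and the others did not pass.

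The third comparison asked whether the tumor-derived TJ line differed from the MKOC line, with treatment as a term of the model. This contrast was not used in choosing the genes. Pkd2 was lower in TJ cells and Pkhd1 was higher, and 5 of the 7 genes did not pass the test. Pkd2 was at 0.723-fold of its MKOC level (log2 fold change -0.47, SE 0.10, adjusted p = 0.021, edgeR), with TJ below MKOC both untreated and treated. Pkhd1 was at 1.40-fold (log2 fold change 0.48, SE 0.11, adjusted p = 0.025, edgeR), with TJ above MKOC at both treatments. Of all genes, 5.47% were higher and 3.32% were lower in TJ cells, 8.79% in all. Neither call held with limma on log2(TPM + 1), which gave adjusted p = 0.094 for Pkd2 and adjusted p = 0.19 for Pkhd1, or without treatment in the model (adjusted p = 1 for both, edgeR). Neither held when any 1 library was left out, which leaves 1 line with a single treatment and turned the sign of Pkhd1 without treated TJ cells.

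For the other 5 genes the 95% intervals of the TJ to MKOC ratio were 0.862 to 1.19 for Pkd1, 0.965 to 1.32 for Bicc1, 0.771 to 1.305 for Nek8, 0.788 to 1.25 for Ift88 and 0.790 to 1.10 for Kif3a. These intervals hold the sizes of difference that the test did not exclude. Of the other 74 listed genes, 1 passed, Foxj1, at 2.31-fold higher in TJ cells (adjusted p = 0.021, edgeR). None of the listed genes passed with DESeq2, with limma, without treatment in the model or with any 1 library left out, so this call was lost under each.

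The fourth comparison set the 2 untreated kidney libraries against the 2 MEF libraries, which differ in Tsc2 genotype and so widen the spread on their side. Pkhd1 alone of the 7 passed, upward in kidney, where 4.74% of all genes did, and 0 passed downward, against 5.2% of all genes (9.93% in all). Pkhd1 passed the filter on low counts only through the kidney libraries, where it is high, so its call is no support for the difference and its counts are given as a description. It had 2941 estimated counts in the 2 kidney libraries and 1 in the 2 MEF libraries, a ratio of counts per total of 3170 (exact conditional interval 569 to 125250). With either kidney library left out it no longer passed. With DESeq2, 2 of the 7 genes passed, where 20.4% of all genes did.

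Pkd1 was at 0.542-fold in kidney relative to MEFs (log2 fold change -0.88, SE 0.17, adjusted p = 0.053, edgeR), with both untreated kidney values below both MEF values. It passed with DESeq2 (adjusted p = 9.6e-05) and with either MEF library left out (adjusted p = 0.0049 without Tsc2+/+ and 0.0018 without Tsc2-/-, edgeR). It did not pass with limma (adjusted p = 0.23), with all 4 kidney libraries (log2 fold change -0.51, adjusted p = 0.15, edgeR), without the filter on low counts (adjusted p = 0.084, edgeR) or with a kidney library left out (adjusted p = 0.56 without MKOC and 0.55 without TJ, edgeR). Kif3a was at 0.661-fold (adjusted p = 0.13, edgeR), Pkd2 at 0.666-fold (adjusted p = 0.32, edgeR), Ift88 at 0.678-fold (adjusted p = 0.45, edgeR) and Nek8 at 0.835-fold (adjusted p = 0.73, edgeR), none past the threshold. Kif3a passed with all 4 kidney libraries (adjusted p = 0.029, edgeR), where 30.9% of all genes did. That fit takes the treated and untreated libraries of each line as separate replicates. Without Tsc2-/- MEFs Kif3a (adjusted p = 0.0062, edgeR), Pkd2 (adjusted p = 0.0053, edgeR) and Ift88 (adjusted p = 0.0074, edgeR) passed, each lower in kidney. Without Tsc2+/+ MEFs none of them passed, with log2 fold changes of -0.42 for Kif3a (adjusted p = 0.057, edgeR), -0.09 for Pkd2 (adjusted p = 0.73, edgeR) and 0.075 for Ift88 (adjusted p = 0.82, edgeR). Bicc1 did not pass (log2 fold change 2.78, adjusted p = 0.43, edgeR), and its MEF values were 0.0530 and 21.9 TPM. Without Tsc2+/+ MEFs its log2 fold change was 1.80. Without Tsc2-/- MEFs it was 10.32, against the 6 counts of Tsc2+/+ MEFs. In that last setting Bicc1 passed the filter on low counts only through the kidney libraries, so the value is a description.

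Of 75 other listed genes tested here, 3 were higher in kidney (4%) and 1 was lower (1.33%). These 4 calls became 2 without the filter on low counts (5.6% of all genes passed there), 20 with DESeq2 (20.4% of all genes) and 21 with all 4 kidney libraries (30.9% of all genes). They became 30 without Tsc2+/+ MEFs (47.7% of all genes), 44 without Tsc2-/- MEFs (56.1% of all genes) and 0 with either kidney library left out, where 0 genes of the table passed. Among those higher was Pkd2l1, a paralog of Pkd2, with 23 and 25 counts in untreated kidney cells and 2 and 1 in Tsc2+/+ and Tsc2-/- MEFs. The gene that was lower was Anks6, a partner of Nek8 in the inversin compartment that also binds the Bicc1 partner Anks3. Anks6 had 5.55 and 8.30 TPM in Tsc2+/+ and Tsc2-/- MEFs, from 465 and 296 estimated counts, and 1 or 2 counts in each kidney library, treated or not. Its counts per total were 235-fold higher in MEFs (interval 80.2 to 1144). Pkd2l1 and Anks6 passed the filter only through the side where they are high, so these counts are a description and their calls are no support. Anks3 was at 15.2 to 16.9 TPM in the kidney libraries.

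The fifth comparison was that of Tsc2-/- with Tsc2+/+ MEFs, 1 library each, so no test was made and intervals cover counting error only. Bicc1 was the only gene of the 7 that differed at least 2-fold on TPM + 1 (on TMM-normalized CPM Ift88 also did, and with 0.1 in place of 1 added Nek8 did), and it was almost absent from Tsc2+/+ MEFs. It had 6 estimated counts there (0.0530 TPM, interval 0.0195 to 0.115) and 1574 in Tsc2-/- MEFs (21.9 TPM, interval 20.8 to 23.0). The fold change with 1 added to TPM was 21.8, and counts per total differed 409.8-fold (interval 188 to 1118). The level in Tsc2-/- MEFs was still below that of every kidney library.

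Of 12771 genes with at least 1 TPM in either MEF library, 25.2% were at least 2-fold higher and 5.18% at least 2-fold lower in Tsc2-/- MEFs. The median log2 fold change of these genes was 0.45, and with TPM scaled to a median ratio of 1 the counts went from 3222 higher and 662 lower to 2019 higher and 1048 lower. On TMM-normalized CPM, over a different set of 14131 genes, 2822 were at least 2-fold higher and 1879 lower. Changes are therefore read against that shift. Of the 7 genes, 6 reached 1 TPM in the MEFs, and Pkhd1 was at or under 1 count in both.

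Nek8 had a log2 fold change of 0.89 (0.55 when scaled), from 184 and 214 estimated counts. Pkd1 had 0.36, but 0.00 when scaled and -0.10 as TMM-normalized CPM, so its direction depends on the scaling. Kif3a had 0.16, but -0.22 when scaled. Pkd2 had -0.33 (-0.70 when scaled and -0.82 as TMM-normalized CPM) and Ift88 -0.50 (-0.83 when scaled and -1.04 as TMM-normalized CPM), and both were lower under each of these scalings. Of 70 other listed genes with at least 1 TPM, 6 were at least 2-fold higher (Anks3, Dnajb11, Glis2, Pkhd1l1, Prkcsh and Wdr35) and 1 was at least 2-fold lower (Hspb11, an IFT-B subunit), named after their values were seen, and the median of the 70 was 0.21. When scaled, 4 were higher, without Anks3 and Prkcsh, and 4 were lower, with Ift52, Rfx3 and Tctex1d2 added, and on TMM-normalized CPM the numbers were 5 and 5. Pkhd1l1, the paralog of Pkhd1, had 4428 estimated counts (22.8 TPM) in the Tsc2-/- library, 2 (0.00504 TPM) in the Tsc2+/+ library, and at most 8 counts in a kidney library.

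Epithelial keratins differed between the same libraries as Bicc1. Krt19 was at 55.6 TPM and Krt18 at 20.6 TPM in Tsc2-/- MEFs, against 0.0506 TPM and 0 in Tsc2+/+ MEFs, and these were the 2 of 8 epithelial markers that reached 1 TPM. The list summed to 77.7 and 0.169 TPM. The defining markers Cdh1 and Epcam were at 0.321 and 0.347 TPM in Tsc2-/- MEFs, and the tubule factor Pax2 was at 0. The part of these in the difference of Bicc1 was not tested.

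Over the 6 libraries, the genes whose log2(TPM + 1) profile was most like that of Pkd1, among 10197 genes with a mean of at least 5 TPM, were Map1lc3b (Pearson r 0.997), Dtx3 (0.995) and Prdm2 (0.989). The most alike was Idua for Pkd2 (0.994), Crip1 for Pkhd1 (0.999), Ccnf for Bicc1 (0.999), Sec62 for Nek8 (0.991), Cfap97 for Ift88 (0.991) and Amotl1 for Kif3a (0.998). These values describe 6 points that share their libraries and their depth, and were picked as the highest of many. Crip1 went from 987 to 2376 TPM in MKOC and from 1312 to 4383 TPM in TJ cells with rapamycin, while Pkhd1 stayed at or below 14.0 TPM.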

How the data were processed

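Poly(A)-selected stranded libraries of 6 mouse samples were sequenced by the authors, who quantified transcripts with Kallisto (version not given in the sources used here). The deposited table gives estimated counts, TPM and transcript lengths made by the authors for 88198 transcripts. The study's methods name a human genome, whereas the transcript identifiers are those of mouse. A deposited fold change, a ratio from the authors' MEF comparison, was not used beyond the gene symbols listed with it. Values were summed per symbol, giving 30281 symbols. Transcripts without a symbol held 0.372% to 0.468% of counts and were left out, and the first symbol was used for 8 transcripts with 2.

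Estimated counts were rounded, and genes were filtered by filterByExpr. TMM normalization and the quasi-likelihood test of edgeR 4.0.16 (R 4.3.3) followed, with cell line as a term for rapamycin, treatment as a term for TJ against MKOC, and no further term for kidney against MEFs. P-values were adjusted by Benjamini-Hochberg over all genes, with a threshold of 0.05. The labels pair the kidney libraries by line, and deviations within a line correlated at 0.52 over 12952 genes. The MEF comparison used log2(TPM + 1) without a test. Members and gene lists were chosen with earlier results of these data known. Named genes were the 7 members, Tsc2, the 2 largest rises and falls past the threshold in each list, and the profiles most like each member. Alternatives were DESeq2 1.42.0, limma 3.58.1, upper-quartile normalization, other filters, pseudocounts of 0.1, 0.5 and 5 TPM, other scalings and single libraries left out. Each test was run on simulated data that held no differences between lines or genotypes, so this does not measure the error rates in these libraries. Gene positions are those of GENCODE M21 (GRCm38). Values of some listed genes are not reported here.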

Additional observations from a re-analysis of the deposited data

Results flagged for a closer look

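The share of Nek8 counts on its main protein-coding transcript, ENSMUST00000017549 of 15 exons, moved in opposite directions with rapamycin in the 2 kidney lines. It was 69.8% (exact binomial interval 62.3% to 76.5%) of 172 estimated counts in untreated and 59.0% (53.3% to 64.6%) of 310 in treated MKOC cells, and 67.6% (59.4% to 75.0%) of 148 in untreated and 83.6% (79.6% to 87.2%) of 385 in treated TJ cells. The change in TJ cells exceeded that in MKOC cells by 26.5 percentage points, and the difference was not tested, since there is 1 library per line and treatment. The intervals cover counting error only, and the division of reads between transcripts that share most of their exons is Kallisto's estimate. The rise of the summed Nek8 counts does not rest on this division, whereas the size of its rise in TPM also depends on it.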

How the results depend on the processing

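The number of genes past the threshold was 4526 for rapamycin, 1139 for TJ against MKOC and 1338 for kidney against MEFs, and 3884 genes differed 2-fold between the MEFs. Without the cell line as replicate block, 1275 genes (9.84%) passed for rapamycin, with 2 of the 7 genes among them and not 6. DESeq2 passed 5 of the 7, where 15.4% of all genes passed. The other alternatives passed 6, where 25.4% to 34.6% of all genes did. The 7 genes were chosen with this contrast in view, so nothing is read from these counts. In MKOC or TJ cells alone the change is a value with no test. For TJ against MKOC, 1753 passed without the filter, 611 with DESeq2, 469 with limma and 0 without treatment as replicate block (702 at an unadjusted p under 0.05); leaving out single libraries gave 0 to 107 (0 without untreated or treated MKOC cells, with 655 and 642 at an unadjusted p under 0.05), with treatment dropped from the model because 3 libraries leave it no residual degree of freedom. For kidney against MEFs, 4185 passed with DESeq2, 4265 with all 4 kidney libraries, and 0 to 7924 with single libraries left out (6886 without Tsc2+/+ and 7924 without Tsc2-/- MEFs; 0 without untreated MKOC or TJ cells, with 1511 and 1487 at an unadjusted p under 0.05); where a side keeps 1 library, it is assumed to vary like the other side. With a pseudocount of 5 TPM, 2139 genes differed 2-fold between the MEFs.

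Signs turned for the genes and settings named next. For TJ against MKOC, Nek8 had a log2 fold change of -0.0074 with DESeq2 and -0.012 with limma, and Ift88 had 0.14 with limma. With single libraries left out, the log2 fold changes ranged from -0.33 to 0.36 for Pkd1, -0.071 to 0.95 for Pkhd1, -0.17 to 0.49 for Bicc1, -0.81 to 0.75 for Nek8, -0.36 to 0.36 for Ift88 and -0.86 to 0.68 for Tsc2. For kidney against MEFs, Nek8 had 0.54 with all 4 kidney libraries, and with single libraries left out Nek8 ranged from -0.56 to 0.17 and Ift88 from -0.98 to 0.075. Few counts limit Nek8 (148 to 385 per library) and, in the MEFs, Pkhd1 (0 and 1) and Bicc1 in Tsc2+/+ cells (6).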
